A study of Mus musculus with 6 samples.

Results

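The ubiquitin-conjugating enzymes, or E2 enzymes, were examined in metaphase II (MII) oocytes of ICR mice aged 42 to 45 weeks, an age near the end of the reproductive lifespan. The members were the Ensembl genes whose name begins with Ube2 followed by a letter, without names that contain -ps, and 40 of the 60193 listed genes met this rule. Of these 40 genes, 37 were annotated as protein-coding, 2 as processed pseudogenes (Ube2d4 and Ube2nl) and the remaining one, Ube2uos, as a long noncoding RNA. Ube2cbp carries the name Ube3d, which is not a Ube2 name, in the current annotation. It is a member by its listed name only and is not taken here to be an E2 enzyme. The 6 RNA-seq samples comprised 3 of in vitro matured (IVM) oocytes, which were stripped of cumulus cells as immature oocytes and cultured in M16 medium, and 3 of in vivo matured (IVO) oocytes, which were ovulated after hCG and freed of cumulus cells with hyaluronidase. All donors had received PMSG, and each sample pooled oocytes from several mice. The values were FPKM, fragments on a gene corrected for transcript length and for the total mapped in each library.

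An E2 enzyme receives activated ubiquitin from an E1 enzyme on a cysteine and, together with an E3 ligase, passes it to a substrate protein. The E2 sets in large part which kind of chain is built, and with it whether the substrate goes to the proteasome or takes part in signaling or DNA repair. Some E2s carry relatives of ubiquitin instead, such as NEDD8. In oocytes, the anaphase-promoting complex works with its own E2s to destroy cyclin B and securin, and maternal ubiquitin ligases remove stored proteins around fertilization.

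The libraries differed in ways that apply to every gene. Steps between low values of FPKM put the depth at 16500000 to 19200000 fragments in the IVM samples and 17800000 to 18200000 fragments in the IVO samples, and 3 fragments on a transcript of 1 kb were worth 0.196 to 0.232 FPKM, a floor that covers counting error only. The inferred mean fragment length was 196 to 217 bases in IVM and 247 to 264 bases in IVO samples. The median log2FC (IVO minus IVM, on the log2(FPKM + 1) scale) of the 18818 tested genes was -0.30, and it was -0.039 after median-ratio scaling of the libraries. All 12 oocyte markers examined reached 1 FPKM in every sample, but 5 of them (Zp1, Zp2, Zp3, Nlrp5 and Padi6) were lower DEGs in IVO, also with median-ratio scaling, and none was higher. Zp2, a gene of the zona pellucida, had 398 to 874 FPKM in IVM and 33.6 to 43.6 FPKM in IVO samples. Of 16 cumulus and granulosa cell markers, 12 stayed under 1 FPKM in every sample and Amh was listed at 0 throughout, whereas the summed level of the list was 70.2 to 90.1 FPKM in IVM and 48.0 to 75.4 FPKM in IVO samples. The other 4, Fshr, Cyp19a1, Nr5a2 and Amhr2, reached 1 FPKM in every sample. Of these only Nr5a2 was a lower DEG in IVO (log2FC -1.04, adjusted p = 0.0139 in limma), and not with median-ratio scaling. Has2, Tnfaip6 and Ptx3, at most 0.49 FPKM, were higher in every IVO than in any IVM sample. The summed level of 7 blood and immune markers was 1.73 to 3.28 FPKM in IVM and 2.92 to 23.2 FPKM in IVO samples, the highest value being 15.7 FPKM of Lyz2 in IVO sample 3. The part of these markers in the results was not tested.

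The cDNA was primed from the poly(A) tail, so the 3′ end of each mRNA is the part by which it was captured. The sites shown here are stretches of 30 bases from the GRCm39 reference, read on the strand of the mRNA, for 3 genes that were lower in IVO oocytes (Ube2c, Ube2v2 and Ube2l3), for the most abundant gene (Ube2d3) and for Ube2b. Capitals mark the poly(A) signal, or in Ube2b a motif of the cytoplasmic polyadenylation element, which lies at chr11:51873788-51873817. The last 100 bases of Ube2b held no poly(A) signal, and its motif ends 3 bases before the end of the reference transcript. That transcript has 4339 bases, against a listed gene length of 1792, so whether this end was the captured one is not known. The other sites are at chr2:164614786-164614815 for Ube2c, chr16:15370545-15370574 for Ube2v2, chr16:16969884-16969913 for Ube2l3 and chr3:135172250-135172279 for Ube2d3.
Ube2c: caatgtatattaAATAAAtacacattgatt
Ube2v2: taccaaagactgAATAAActttttctctaa
Ube2l3: cattctgtccttAATAAAaatgttctcaga
Ube2d3: caaaatttacaaAATAAAgtactgttttgg
Ube2b: atcttagtaaagttttgaggTTTTAATgtt
In the last 100 bases of the reference transcript, 25 of the 31 tested members (80.6%) held the poly(A) signal AATAAA or its common variant, the motif ATTAAA, against 80.1% of 9801 tested genes with a 3′ untranslated region of at least that length. A cytoplasmic polyadenylation motif (the motif TTTTAT, the longer motif TTTTAAT or the related motif TTTTACT, all searched on the mRNA strand) was found in 3 of the 31 members, namely Ube2b, Ube2e1 and Ube2q2, against 21.1% of these tested genes and 18.5% of all 19754 genes with such a region. None of the 9 members that fell held it in this window, and 3 of the 22 others (13.6%) did, numbers too small to compare. The poly(A) signal was held by 6 of these 9 (66.7%), all but Ube2t, Ube2a and Ube2m, and by 19 of the 22 others (86.4%). As for Ube2b, some of these reference transcripts are far longer than the listed gene. They have 2681 bases against 1116 for Ube2t, 4465 against 1732 for Ube2a and 5823 against 1363 for Ube2f. Whether the ends searched in these genes were the captured ones is not known either. No test was run on these counts.

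Of the 40 members, 31 had a mean of at least 1 FPKM over the 6 samples and were tested. The mRNAs of 9 members fell in IVO relative to IVM oocytes: Ube2t, Ube2c, Ube2m, Ube2v2, Ube2a, Ube2f, Ube2l3, Ube2g2 and Ube2r2. No member was a differentially expressed gene (DEG) higher in IVO, though Ube2d3 and Ube2d2a, broad-acting E2s, were 1.56-fold and 1.75-fold higher and passed the test on p alone. A DEG was defined by |log2FC| ≥ 1 and an adjusted p-value under 0.05 in limma. The 9 lower members were 29.0% of those tested, beside 17.9% of all tested genes and 14.3% of tested protein-coding genes, and higher DEGs were 0.606% and 0.628% of these (18.5% of all tested genes were DEGs in either direction). An adjusted p-value under 0.05, whatever the fold, was found in 12 members (10 lower and 2 higher), beside 23.4% of all tested genes (21.5% lower and 1.87% higher). At an unadjusted p-value under 0.05, 3 members were higher, but the share of all tested genes at this threshold was not computed. The median log2FC of the 31 members was -0.21, close to the -0.30 of all tested genes. No IVM value lay within the range of the IVO values, or the reverse, in 15 members (48.4%), 11 of them lower and 4 higher in IVO, beside 42.2% of all tested genes (32.6% lower). In pools of oocytes, fewer oocytes with a transcript and less of it per oocyte cannot be told apart.

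How the libraries were scaled changed the calls. Under median-ratio scaling, 7 members were lower DEGs (all but Ube2g2 and Ube2r2, whose log2FC became -0.79 and -0.68) and Ube2d2a became a higher DEG with a log2FC of 1.14, beside 11.2% lower and 2.09% higher DEGs among all tested genes. Among the DEGs of all tested genes, 96.7% were lower in the deposited scale, 84.3% after median-ratio scaling, 73.1% once the trend of each library with length was removed and 59.0% after quantile normalization. Under quantile normalization the same 7 members were lower, and Ube2d1 and Ube2d2a were higher. In this setting 1580 of the 18818 tested genes were lower DEGs and 1097 were higher, so higher calls were not particular to the members.

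**Figure D1:**
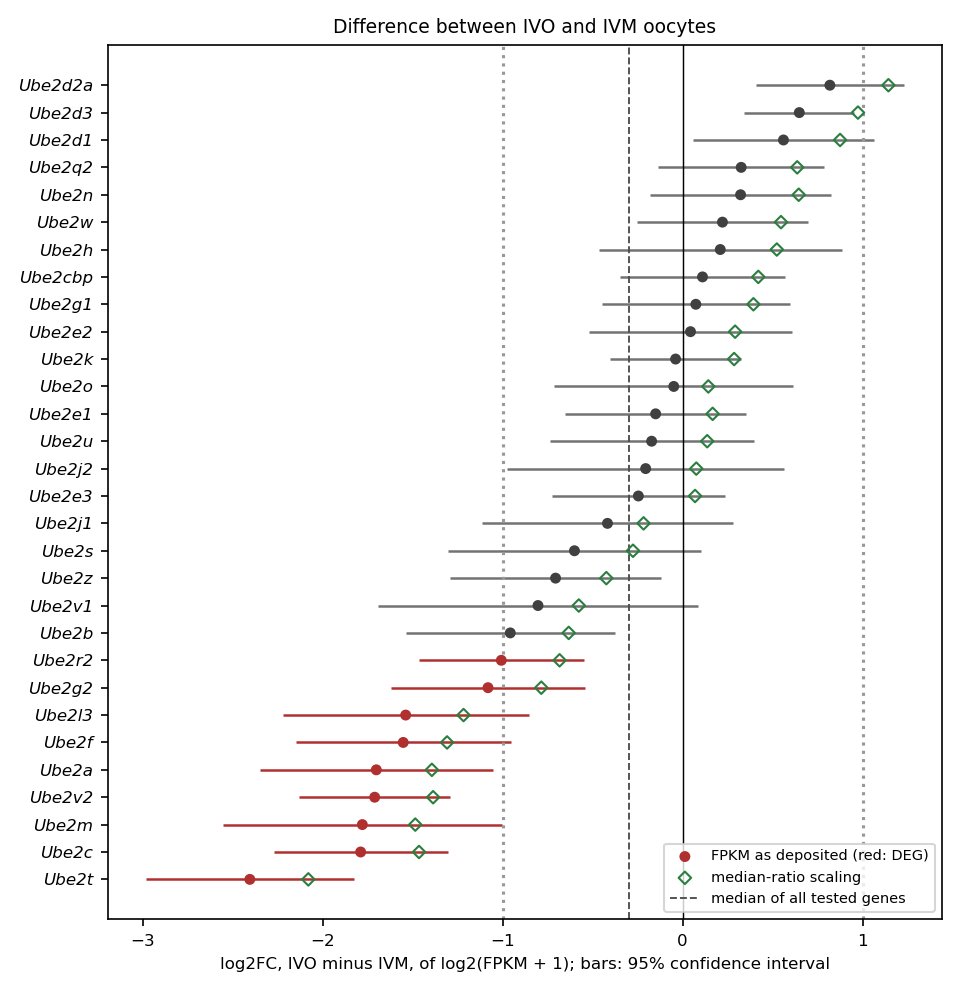
Log2FC (IVO minus IVM, of log2(FPKM + 1)) of 30 of the 31 tested members with 95% confidence intervals from limma, with red points for DEGs, and the same value after median-ratio scaling as open diamonds. Dotted lines stand at the threshold of 1 in either direction and the dashed line at the median of all tested genes, -0.30. The 9 red points run from -2.40 for Ube2t to -1.01 for Ube2r2, and the diamonds lie to the right of the points throughout.

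The most abundant member was Ube2d3, one of the broad ubiquitin E2s, which work with many E3 ligases. The rest of this group ranged widely, down to Ube2e2 and the untested Ube2dnl1, Ube2dnl2, Ube2d2b and Ube2d4. In IVM samples Ube2t, Ube2s and Ube2v2 had higher means than Ube2d2a and Ube2w. Ube2d3, on chromosome 3 of GRCm39 from 135142743 to 135176674, had 1629.8, 1391 and 1424 FPKM in IVM and 2276, 2276 and 2402 FPKM in IVO samples. Every IVO value was above every IVM value, with a log2FC of 0.65 (standard error 0.13, adjusted p = 0.0132). Its relative Ube2d2a had 269.8, 258 and 355 FPKM in IVM and 539.8, 485 and 520.3 FPKM in IVO samples, and the groups were again apart. The log2FC of Ube2d2a was 0.82 (standard error 0.18, adjusted p = 0.0168). Ube2d1, also of this subfamily, had 25.3, 17.1 and 24.8 FPKM in IVM and 32.2, 35.1 and 31.9 FPKM in IVO samples. Its values did not overlap either, but the adjusted p-value was 0.102. The reference transcripts of Ube2d2a and Ube2d3 share an exact run of at most 42 bases. Ube2w, which attaches ubiquitin to the amino terminus of proteins, had 299.8, 399 and 472 FPKM in IVM and 490.3, 443 and 413 FPKM in IVO samples, and the groups overlapped.

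The Ube2e genes, whose products carry an amino-terminal extension ahead of the E2 fold, differed little. Ube2e1 had 31.1, 32.7 and 44.0 FPKM in IVM and 35.9, 32.5 and 27.8 FPKM in IVO samples. Ube2e3 had 34.0, 24.8 and 33.9 FPKM in IVM and 27.1, 26.7 and 23.3 FPKM in IVO samples. Both pairs of groups overlapped, and the adjusted p-values were 0.657 and 0.431. Ube2e2 was the lowest of the subfamily, with 2.80, 3.82 and 3.02 FPKM in IVM and 2.82, 4.32 and 2.97 FPKM in IVO samples. Ube2e1 shares 888 exonic bases with Nkiras1 on the opposite strand, a gene at 302 to 407 FPKM, and the fragments of such a pair cannot be told apart without strand.

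Of the 2 E2s of the anaphase-promoting complex, Ube2c fell and Ube2s did not pass the test. Ube2c, which starts ubiquitin chains on cyclin B and securin, lies on chromosome 2 from 164611768 to 164620742. It had 485, 321 and 364 FPKM in IVM and 106, 101 and 126 FPKM in IVO samples, so that the lowest IVM value was far above the highest IVO value. The IVM mean was 3.51-fold the IVO mean, and the log2FC was -1.79 (standard error 0.21, adjusted p = 0.00213). Ube2s, which elongates these chains, had 650.1, 297 and 572 FPKM in IVM and 301, 296 and 354 FPKM in IVO samples. IVM sample 2 lay within the range of the IVO samples, and the log2FC of -0.60 (95% confidence interval -1.31 to 0.10) had an adjusted p-value of 0.194. Ube2s shares 1502 exonic bases with Rpl28 on the opposite strand, which was at 5.91 to 16.2 FPKM.

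**Figure D2:**
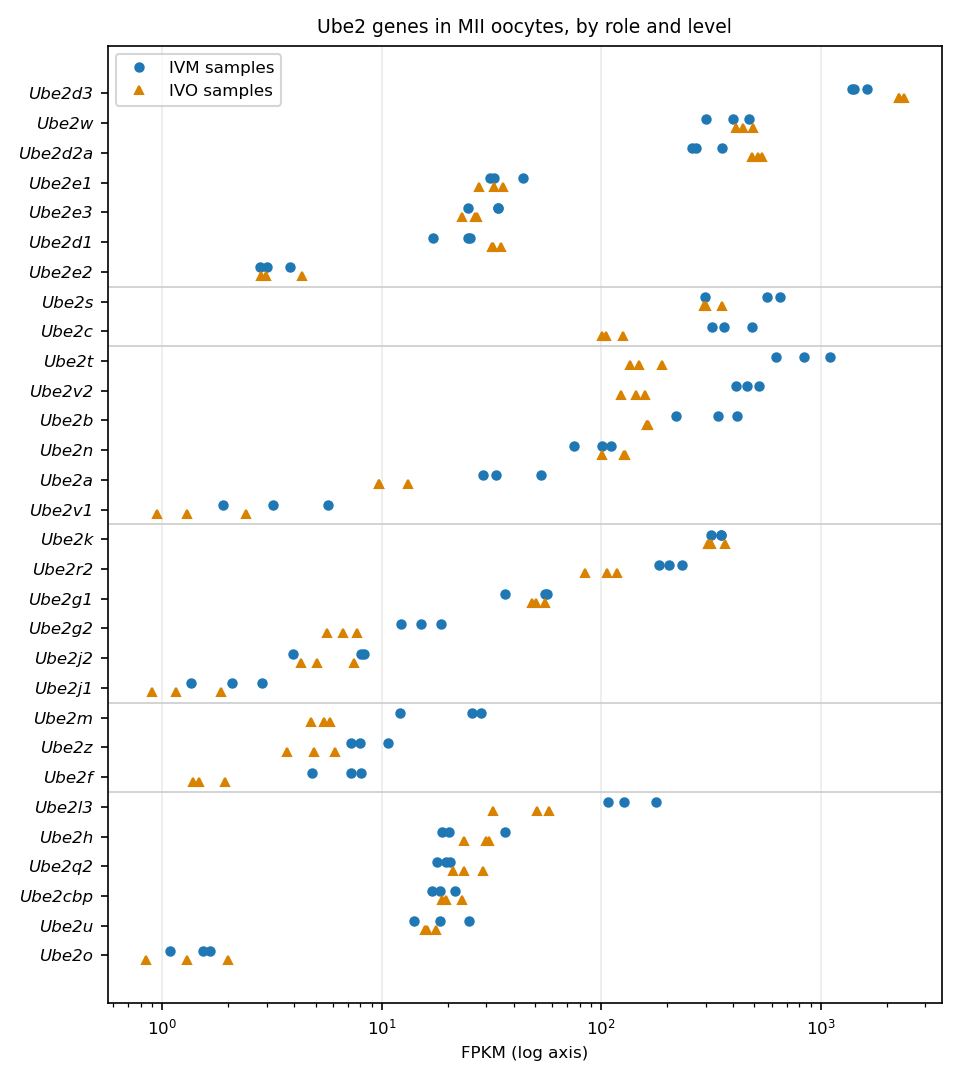
FPKM (log axis) of 30 of the 31 tested members in each of the 3 IVM samples (circles) and the 3 IVO samples (triangles). Gray lines separate broad ubiquitin E2s, E2s of the anaphase-promoting complex, DNA damage and K63 chain E2s, degradative chain and endoplasmic reticulum E2s, E2s of ubiquitin-like proteins, and the others, each ordered by level. The triangles lie left of the circles for Ube2c, Ube2t, Ube2v2 and Ube2a, and right of them for Ube2d3, Ube2d2a and Ube2d1.

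The E2s of DNA damage responses and K63-linked chains held the member with the most negative log2FC. Ube2t, which ubiquitinates FANCD2 in the Fanconi anemia pathway, lies on chromosome 1 from 134890275 to 134903457. It had 842, 1099 and 624 FPKM in IVM and 136, 149 and 189.9 FPKM in IVO samples. The groups were far apart, with a 5.41-fold higher mean in IVM and a log2FC of -2.40 (standard error 0.25, adjusted p = 0.00171). Ube2v2, an E2 variant that lacks the catalytic cysteine and directs Ube2n to build K63-linked chains, had 463, 525 and 411 FPKM in IVM and 145, 158 and 123 FPKM in IVO samples. The log2FC of Ube2v2 was -1.71 (standard error 0.18, adjusted p = 0.00176). It lies on chromosome 16 from 15306905 to 15413637. Its partner Ube2n did not share this difference. Ube2n had 74.9, 101 and 111 FPKM in IVM and 128, 128 and 101 FPKM in IVO samples, which overlapped (log2FC 0.32, adjusted p = 0.322). The pseudogene Ube2n-ps1 is identical to a run of 459 bases of Ube2n and was listed at 63.3 to 80.4 FPKM in IVM and 72.2 to 105 FPKM in IVO samples, so the division of fragments between them is uncertain.

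Ube2v1, the other E2 variant, was far lower, with 5.69, 1.90 and 3.19 FPKM in IVM and 0.95, 1.30 and 2.41 FPKM in IVO samples, and the groups overlapped (adjusted p = 0.172). It shares 1673 exonic bases on the same strand with the protein-coding gene Gm20431, which had 20.3 to 30.2 FPKM in IVM and was listed at 0, 0 and 2.97 FPKM in IVO samples. Fragments of this locus may have been counted under either name, so the values of Ube2v1 are uncertain.

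Ube2a and Ube2b encode near-identical E2s that act with Rad18 on PCNA and with Rnf20 and Rnf40 on histone H2B, and maternal Ube2a is known to be needed for the first cleavages of the mouse embryo. Ube2a, on chromosome X from 36064828 to 36150335, had 53.3, 29.1 and 33.2 FPKM in IVM and 9.72, 9.69 and 13.1 FPKM in IVO samples. Ube2b had 418, 220.1 and 341 FPKM in IVM and 162, 161 and 163 FPKM in IVO samples. In both genes each IVM value was above each IVO value. Ube2a was a DEG with a log2FC of -1.70 (standard error 0.27, adjusted p = 0.00647), while Ube2b, with a log2FC of -0.96 (standard error 0.25, adjusted p = 0.0314), was just short of the fold threshold. Without IVM sample 2, Ube2b was also a DEG, with a log2FC of -1.22. With any other sample left out, its adjusted p-value in limma was 0.0716 to 0.0911. The log2FC of Ube2b was -0.63 (adjusted p = 0.0951) with median-ratio scaling and -0.76 (adjusted p = 0.0616) with the length trend removed. The reference transcripts of the 2 genes share no exact run over 18 bases. Ube2b overlaps Cdkl3 by 203 exonic bases on the opposite strand. Cdkl3 had 1292, 1116 and 1288 FPKM in IVM and 1744, 451 and 634 FPKM in IVO samples. Both genes were lowest of the IVM samples in sample 2, while Ube2b was nearly level among the IVO samples. The part of this overlap in the values of Ube2b was not tested.

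Among E2s that build degradative chains or act at the endoplasmic reticulum, Ube2g2 and Ube2r2 fell and the other members did not pass the test. Ube2r2, a relative of Cdc34 that serves cullin-RING ligases, had 234, 203 and 184 FPKM in IVM and 84.7, 106 and 118 FPKM in IVO samples (log2FC -1.01, standard error 0.19, adjusted p = 0.0117). Ube2g2, which serves degradation of proteins from the endoplasmic reticulum, had 15.1, 12.3 and 18.6 FPKM in IVM and 5.61, 7.75 and 6.67 FPKM in IVO samples (log2FC -1.08, standard error 0.23, adjusted p = 0.0164). The groups were apart in both genes, but both lie near the fold threshold. Ube2r2 was not a DEG without IVM sample 1 (log2FC -0.92) or without IVO sample 1 (-0.88). Ube2g2 was not a DEG without IVM sample 1 (-1.08, past the fold but not the adjusted p-value), IVM sample 3 (-0.94) or IVO sample 1 (-0.98). Ube2g1, which builds chains on substrates of cullin-RING ligases, had 55.3, 36.7 and 56.7 FPKM in IVM and 55.3, 50.4 and 48.3 FPKM in IVO samples. Ube2k, which can build K48-linked chains by itself, had 316, 350.1 and 352 FPKM in IVM and 318, 306 and 368 FPKM in IVO samples. These groups overlapped, and the 95% confidence interval of the log2FC was -0.45 to 0.59 for Ube2g1 and -0.40 to 0.32 for Ube2k. Ube2k shares 186 exonic bases with Smim14 on the opposite strand, which had 367 to 502 FPKM in IVM and 543 to 676 FPKM in IVO samples. The part of this overlap in the values of Ube2k was not tested. The membrane-anchored E2s Ube2j1 and Ube2j2 were low. Ube2j1 had 2.09, 1.35 and 2.85 FPKM in IVM and 1.86, 0.90 and 1.16 FPKM in IVO samples. Ube2j2 had 8.34, 3.93 and 8.08 FPKM in IVM and 4.28, 7.50 and 5.08 FPKM in IVO samples, and both overlapped between the groups.

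Among the E2s of ubiquitin-like proteins, both E2s of NEDD8, which is attached to cullins, fell. Ube2m, on chromosome 7 from 12769047 to 12772249, had 28.5, 12.1 and 25.7 FPKM in IVM and 5.80, 4.78 and 5.48 FPKM in IVO samples (log2FC -1.78, standard error 0.33, adjusted p = 0.0102). Ube2f, on chromosome 1 from 91176217 to 91225284, had 8.06, 4.82 and 7.27 FPKM in IVM and 1.48, 1.93 and 1.38 FPKM in IVO samples (log2FC -1.55, standard error 0.25, adjusted p = 0.00679). Every IVM value of both genes exceeded every IVO value. Ube2z, which is charged by the E1 enzyme Uba6, had 7.28 to 10.7 FPKM in IVM and 3.71 to 6.12 FPKM in IVO samples, apart but not past the test (adjusted p = 0.0836), and it shares 1050 exonic bases with Snf8 on the opposite strand. Ube2l6, the E2 of the interferon-induced ISG15, stayed at or under 0.12 FPKM.

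Of the remaining tested members, Ube2l3 fell. Ube2l3, on chromosome 16 from 16969877 to 17020513, passes ubiquitin only to E3 ligases that themselves form a bond with it. It had 178, 127 and 107 FPKM in IVM and 51.1, 32.1 and 57.8 FPKM in IVO samples, which did not overlap (log2FC -1.54, standard error 0.29, adjusted p = 0.0108). Ube2h, Ube2o, Ube2q2, Ube2u and Ube2cbp had a log2FC between -0.17 and 0.33 and adjusted p-values from 0.279 to 0.922. Ube2h, the E2 of the CTLH ligase complex, had 18.8 to 36.6 FPKM in IVM and 23.8 to 30.7 FPKM in IVO samples. Ube2q2 had 17.9, 20.5 and 19.7 FPKM in IVM and 29.0, 23.9 and 21.2 FPKM in IVO samples, which did not overlap, whereas its paralog Ube2q1 was under the filter at 0.20 to 0.63 FPKM. The 9 members not tested were Ube2q1, Ube2l6, Ube2ql1, Ube2uos, Ube2nl, Ube2dnl1, Ube2dnl2, Ube2d2b and Ube2d4. None of their single values was above 0.65 FPKM, and the last 3 were listed at 0 in every sample.

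The make-up of the family differed between the groups more than its total. The summed FPKM of the 40 members was 6772, 6089 and 6292 with IVM, against 5622, 5493 and 5749 with IVO. As a share of the FPKM of all Ensembl genes, it came to 0.414% ± 0.0335 (SD, n = 3) for IVM and to 0.431% ± 0.00576 (SD, n = 3) for IVO oocytes, which overlapped. Ube2d3 alone took 24.1%, 22.8% and 22.6% of the family's FPKM with IVM, against 40.5%, 41.4% and 41.8% with IVO. The broad ubiquitin E2s together took 35.4% ± 1.85 (SD, n = 3) for IVM and 60.1% ± 0.527 (SD, n = 3) in IVO oocytes. The E2s of DNA damage and K63 chains took 28.0% ± 4.15 (SD, n = 3) and 10.6% ± 0.428 (SD, n = 3), and those of the anaphase-promoting complex 13.9% ± 3.40 (SD, n = 3) and 7.61% ± 0.647 (SD, n = 3). The groups did not overlap in these 3 shares. The shares are given as a description, since they follow from the levels above.

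**Figure D3:**
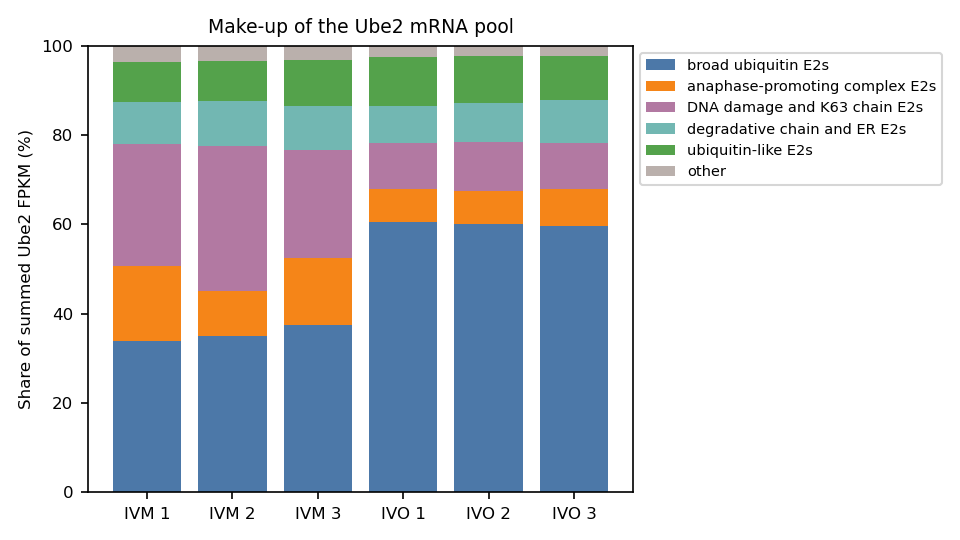
Share (%) of the summed FPKM of the 40 members taken by each role group in each of the 6 samples. Each bar is 1 sample and adds up to the whole family. The broad ubiquitin E2s take 33.9% to 37.5% in the IVM samples and 59.5% to 60.6% in the IVO samples.

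Scaling of the libraries largely cancels in the ratio of related genes within a sample. The log2 ratio of (FPKM + 1) was compared between the groups for 11 pairs by an exact two-sided permutation test, whose smallest possible p-value with 3 samples a group is 0.1. The groups did not overlap in 3 pairs. The ratio of Ube2s to Ube2c was 0.42, -0.12 and 0.65 with IVM and 1.49 to 1.53 in the IVO samples, a difference of 1.19. The ratio of Ube2g1 to Ube2g2 averaged 1.62 ± 0.16 (SD, n = 3) for the IVM samples and 2.78 ± 0.28 (SD, n = 3) for the IVO samples, a difference of 1.15. Thus in every IVO sample Ube2s exceeded Ube2c, and Ube2g1 exceeded Ube2g2, by more than in any IVM sample. The ratio of Ube2a to Ube2b averaged -3.05 ± 0.24 (SD, n = 3) for IVM and -3.79 ± 0.22 (SD, n = 3) in IVO oocytes. Each of these 3 differences had this smallest p-value of 0.1 in the exact permutation test, or 0.367 adjusted over the 11 pairs. In the other pairs, namely Ube2d2a/Ube2d3, Ube2d1/Ube2d3, Ube2e1/Ube2e3, Ube2e2/Ube2e3, Ube2v1/Ube2v2, Ube2j1/Ube2j2, Ube2m/Ube2f and Ube2q1/Ube2q2, the ratios of the groups overlapped.

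**Figure D4:**
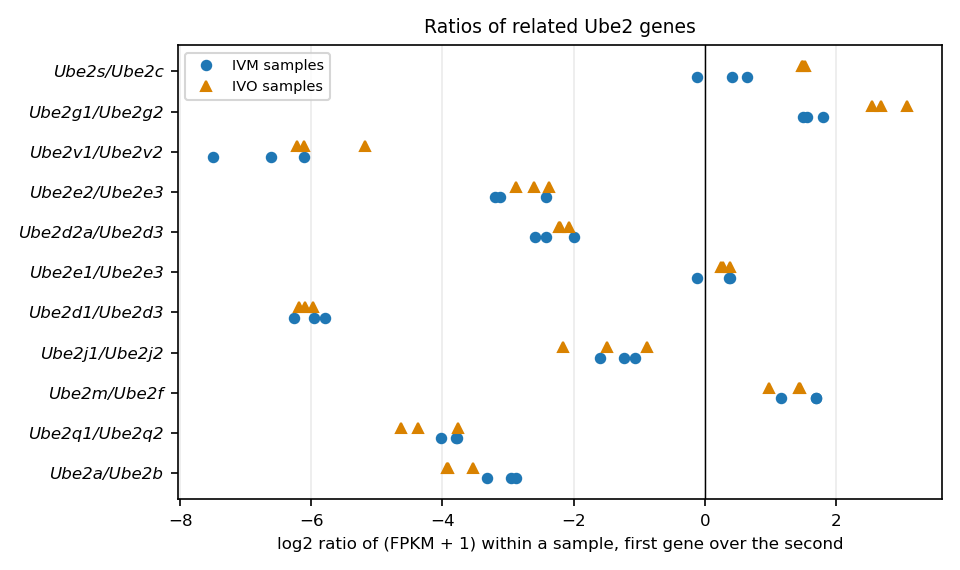
Log2 ratio of (FPKM + 1) of 2 related members within each IVM sample (circles) and each IVO sample (triangles), for 11 pairs ordered by the difference between the groups. The groups are apart for Ube2s/Ube2c, Ube2g1/Ube2g2 and Ube2a/Ube2b, and overlap for the other 8 pairs.

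The length of a gene moved with the difference between the groups. Among tested protein-coding genes, the median log2FC was -0.31 for those of 105 to 1665 bases, of which 21.7% were lower DEGs, and -0.14, -0.12 and -0.12 in the next 3 quartiles of length, of which 12.2%, 11.9% and 11.1% were. Of the members, 4 of 13 in the shortest quartile and 5 of 18 in the others were lower DEGs. The median listed length was 1732 bases for the 9 lower members and 2092.5 bases for the other tested members. With each library's trend with length removed, the 7 members that were lower DEGs under median-ratio scaling were lower DEGs again, and Ube2d2a was a higher DEG with a log2FC of 1.02. Among all tested genes, 1511 were lower DEGs and 557 were higher DEGs in this setting.

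Other genes of the pathway were described from 5 lists. None of the 7 tested E1 enzymes, which load E2s with ubiquitin or one of its relatives, were DEGs in limma. Nor were any of the 9 E2 enzymes and variants with other names, such as Cdc34. Without a share of all tested genes to set beside it, 2 genes of each list had an unadjusted p-value under 0.05. One of them, Birc6, also passed the adjusted test (adjusted p = 0.0444) with its groups apart, and missed the fold threshold at a log2FC of -0.56. Birc6 did not pass the adjusted test with median-ratio scaling (log2FC -0.24, adjusted p = 0.388) or with the length trend removed (log2FC -0.32, adjusted p = 0.240). Of the 11 tested genes for ubiquitin and its relatives, 5 (45.5%) were lower DEGs, beside 17.9% of all tested genes, and none was higher, with a median log2FC of -1.19. With median-ratio scaling 4 of them were lower. Nedd8, the cargo of Ube2m and Ube2f, had 404, 409 and 272 FPKM in IVM and 108, 97.7 and 116 FPKM in IVO samples (log2FC -1.72, standard error 0.21, adjusted p = 0.00255). Sumo3, one of the ubiquitin-like modifiers, had 65.4, 23.5 and 53.3 FPKM in IVM and 11.5, 11.3 and 11.1 FPKM in IVO samples (log2FC -1.86, standard error 0.37, adjusted p = 0.0128). In both genes the groups were apart, but Sumo3, whose listed length is 487 bases, was not a DEG with the length trend removed (log2FC -1.13, adjusted p = 0.0851) or without IVM sample 3 (log2FC -1.71, adjusted p = 0.0532). Of the 41 tested E3 ligases and E3 factors, 5 (12.2%) were lower DEGs, below the share of all tested genes, and none was higher, with a median log2FC of -0.09. None of these 5 was a DEG with median-ratio scaling or with the length trend removed. Anapc11, the catalytic RING subunit of the anaphase-promoting complex, had 192, 143 and 163 FPKM in IVM and 65.8, 70.6 and 68.2 FPKM in IVO samples (log2FC -1.26, standard error 0.18, adjusted p = 0.00421), and its log2FC was -0.94 under either of these settings. Fzr1, an activator of this complex, had 11.3, 3.95 and 13.4 FPKM in IVM and 1.91, 2.90 and 2.04 FPKM in IVO samples, but leaving out any of 5 samples ended this call, as it did for Stub1, an E3 ligase of chaperone clients. Of the 4 UCH deubiquitinases, Uchl1, a very abundant oocyte protein, was the lower DEG, with a log2FC of -1.19 (adjusted p = 0.0113), and its call ended with median-ratio scaling (log2FC -0.86) and with the length trend removed (-0.93). Over the lists, 11 of 72 tested genes (15.3%) were lower DEGs and 0 were higher, a share near that of tested protein-coding genes (14.3%), and 4 (5.56%) were lower with median-ratio scaling, beside 11.2% of all tested genes.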

How the data were processed

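The deposited table holds 1 FPKM value per gene and sample. The authors made the libraries with the SMART-Seq v4 and Nextera XT kits, filtered the paired-end reads (SeqPrep, Sickle) and mapped them to GRCm39 by HISAT2, and the FPKM came from RSEM (versions 2.1.0 and 1.3.3 in the submitters' processing notes). The deposited group means and listed lengths were used only for a check and for length. Samples were grouped by their titles. The authors ran DESeq2 on counts, which were not used here.

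Log2(FPKM + 1) of the 18818 genes with a mean of at least 1 FPKM was fitted in limma 3.58.1 (R 4.3.3, lmFit and eBayes with trend), with the group alone in the model and two-sided Benjamini-Hochberg adjusted p-values over all tested genes. All p-values measure the spread between 3 pools a group. The fit and the removal of the length trend were tested on simulated data. Ratios of related genes were compared by exact permutation tests (scipy 1.17.1). Depth was inferred from genes with 1 annotated transcript of 500 to 4000 bases: of the values worth at most 5.5 fragments, 80.2% to 82.2% per library lay within the larger of 0.1 fragments and the rounding of the value of a whole number. FPKM cannot be turned back into counts for genes with several transcripts, so no count test was run. All 40 members matched the GRCm39 annotation (GENCODE vM39) by identifier, which gave coordinates, biotypes, overlaps and 3′ sequences.

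The members, lists, pairs and role groups were chosen with earlier results of these data known. Values per sample are given for DEGs, for genes past the adjusted p-value, for the 5 most abundant members and for the pairs, and by choice after seeing values for Ube2k and Ube2n. The values of 1 of these members and of 1 gene of the lists are not reported here, though counts and sums include them. The pathway lists were named by their up to 3 DEGs of largest |log2FC| with groups apart. Alternatives were a pseudocount of 0.1, no filter (all genes above 0) or a mean of at least 5 FPKM, median-ratio scaling, quantile normalization, no eBayes trend, a block for the replicate number with and without scaling, removal of the length trend (lowess, span 0.3), Ensembl genes only, and leaving out each sample.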

Additional observations from a re-analysis of the deposited data

How the results depend on the processing

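Of 475 refits of single members under the alternatives, 421 kept direction and call, 17 lost the call, 6 gained one and 31 changed sign, all of the last in members that were not DEGs. Apart from the replicate block, the calls lost were those of Ube2g2 and Ube2r2, and Ube2f was not tested with a mean of at least 5 FPKM. Same-numbered IVM and IVO samples did not deviate together (correlations of -0.06, -0.02 and -0.11). With 3 samples a group this cannot exclude a pairing of small effect, and the titles do not say whether the numbers pair the samples. The replicate block gave 8 lower members, 2899 lower DEGs in all and 92 higher, and with median-ratio scaling 4 lower members (Ube2c, Ube2m, Ube2v2 and Ube2t), 1 higher member (Ube2d2a), 1065 lower DEGs and 1 lower gene of the pathway lists. All lower DEGs numbered 1972 with Ensembl genes only (fewer genes tested), 1511 with the length trend removed, 2106 with median-ratio scaling and 1580 after quantile normalization, and higher DEGs 557, 393 and 1097 in the last 3 of these. Higher members numbered 1 with the length trend removed, 1 with median-ratio scaling and 2 after quantile normalization. Lower genes of the lists numbered 3, 4 and 3 in these, 7 without the filter, and 5 to 12 with a sample left out (6 without IVM 1, 5 without IVM 3, 6 without IVO 1 and 6 without IVO 2), and 5 were higher with quantile normalization. The log2 ratio of the summed members was -0.18, 0.14 with median-ratio scaling and 0.058 as a share of Ensembl FPKM.

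Signs changed with quantile normalization in Ube2j1 (0.019), Ube2e3 (0.21), Ube2j2 (0.28), Ube2u (0.32), Ube2e1 (0.31), Ube2o (0.42) and Ube2k (0.46). With median-ratio scaling, with or without the replicate block, they changed in Ube2e3 (0.069), Ube2j2 (0.076), Ube2u (0.14), Ube2e1 (0.17), Ube2o (0.14) and Ube2k (0.29), and with the length trend removed in Ube2u (0.039), Ube2e1 (0.073), Ube2o (0.14) and Ube2k (0.15). With a sample left out, the log2FC ranged from -0.36 to 0.026 in Ube2u, -0.24 to 0.0013 in Ube2e1, -0.23 to 0.12 in Ube2o, -0.12 to 0.015 in Ube2k, -0.11 to 0.14 in Ube2e2 and -0.13 to 0.18 in Ube2g1. Among the ratios, that of Ube2m to Ube2f turned to 0.052 with a pseudocount of 0.1, and with a sample left out the difference ranged from -0.22 to 0.019 for Ube2d1/Ube2d3, -0.071 to 0.18 for Ube2e1/Ube2e3 and -0.53 to 0.11 for Ube2j1/Ube2j2. The cause of these changes was not tested, and the settings that change the scale move all genes together. Depth limits the precision most in genes of few FPKM, such as Ube2o.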
